A study of Mus musculus with 21 samples.

Results

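The genes of the vascular endothelial growth factor (VEGF) ligands and receptors were followed through the expression tables of embryonic day 14.5 mouse forebrain and kidney. The set holds 9 of 23827 rows, found by symbol: the ligands Vegfa, Vegfb, Vegfc and Pgf, the receptor tyrosine kinases Flt1, Kdr and Flt4, and the co-receptors Nrp1 and Nrp2. Each symbol named 1 row in all 21 samples, and each row entered every test. All embryos carried Gt(ROSA)26Sor-mCherry-Rpl10a+/-, an allele that yields an mCherry-tagged ribosomal protein after Cre recombination, so that the RNA on the ribosomes of recombined cells can be affinity purified (translating ribosome affinity purification; this RNA is the translatome). Sox2Cre+/- embryos, recombined throughout the embryo proper, gave the total RNA (transcriptome) and the translatome of forebrain (brain transcriptome, brain translatome) and of kidney (kidney transcriptome, kidney translatome). Cdh5CreERT2+/- embryos, whose Cre needs tamoxifen and is driven by the VE-cadherin promoter, gave the endothelial cell translatomes (brain EC, kidney EC), and Emx1Cre+/- embryos gave that of the Emx1 lineage of the dorsal forebrain (brain Emx1). Each of the 7 groups had 3 samples, each made from the organs of 1 embryo or of a small pool, per the paper's methods. The whole-organ samples hold endothelial cells too, so a fold change against them sets an enriched sample against a mixture.

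VEGF ligands are secreted dimers that bind receptor tyrosine kinases on endothelial cells and direct the growth of vessels into a tissue. Vegfa signals mainly through Kdr (also VEGFR2), while Flt1 (VEGFR1) binds Vegfa, Vegfb and Pgf tightly, and Flt4 (VEGFR3) is the receptor of Vegfc, a ligand known for lymphatic growth and for vessel sprouting. The neuropilins Nrp1 and Nrp2 hold VEGF on its receptors and, with plexins, also receive class 3 semaphorins, the guidance cues of axons. In the embryonic forebrain, vessels grow inward from the surface towards Vegfa made by neural progenitors, and in the kidney Vegfa of podocytes and tubules is known to draw endothelial cells into the glomeruli.

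Levels are given as RPKM, reads per kilobase of transcript scaled to the mapped reads of each sample, and differences as log2 fold changes of edgeR fitted on the read counts, with a gene called at an adjusted p under 0.001. The depth was 21760652 to 79231692 counts a sample. Member counts ran from 18 (Flt4 in brain Emx1) to 69979 reads (Kdr in brain EC). The 8 endothelial markers Cdh5, Pecam1, Tie1, Tek, Cldn5, Esam, Emcn and Egfl7 summed to 3137 to 3322 RPKM in brain EC, 175 to 196 in the brain translatome and 18.0 to 21.3 in brain Emx1, and to 2067 to 2488 in kidney EC against 396 to 423 in the kidney translatome. RNA of other cells remained in the EC samples: 5 neuronal markers, none at 0, summed to 367 to 475 RPKM in brain EC against 2201 to 2218 in the brain translatome, and 6 kidney epithelial markers, none at 0, to 43.8 to 58.3 RPKM in kidney EC against 259 to 281. In such samples fewer cells of a type and less RNA per cell cannot be told apart. The RPKM and the fitted fold changes are on different scales, because the fit also corrects for library composition (TMM). Without that correction the median of all tested rows moved from -0.01 to -0.30 (log2) in brain EC against the brain translatome, from -0.04 to -0.41 in kidney EC against the kidney translatome, from 0.01 to 0.23 in brain Emx1 against brain EC and from 0.02 to 0.20 in kidney against brain transcriptome. Changes below are relative to the corrected median.

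**Figure D1:**
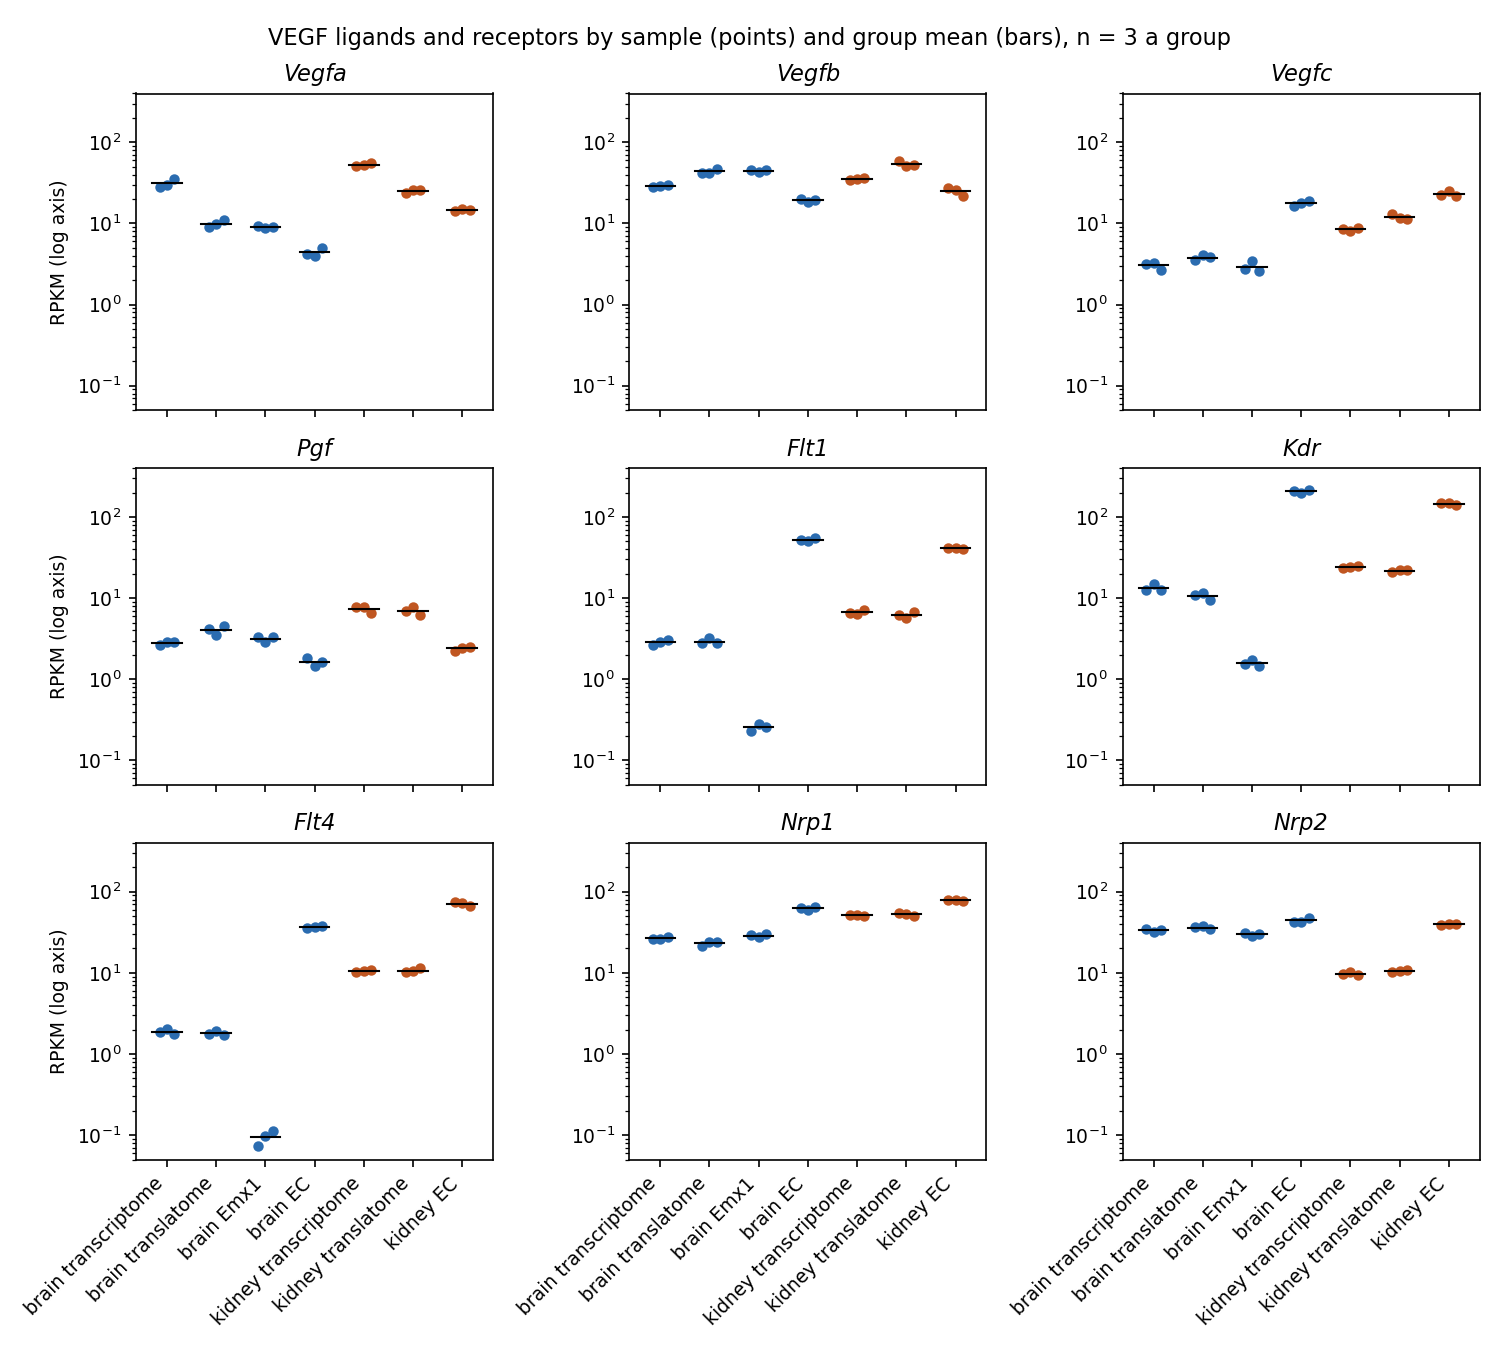
RPKM on a log axis of each of the 9 genes in the 21 samples (points, blue for brain and orange for kidney) with the group mean (bar, n = 3). The points of Flt1, Kdr and Flt4 are highest in brain EC and kidney EC and lowest in brain Emx1, where Flt4 lies between 0.0734 and 0.113 RPKM, while those of Vegfa are highest in the transcriptomes.

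The receptor tyrosine kinases were the members with the highest fold changes in the endothelial samples of both organs. In brain EC, all 3 were called higher than in the brain translatome, by 22.2-fold for Flt1, 23.8-fold for Kdr and 25.0-fold for Flt4, and in kidney EC all 3 were called higher than in the kidney translatome, by 8.50-fold, 8.57-fold and 8.52-fold. Of the whole set, 6 of 9 members were higher and 3 lower in each of these comparisons. Among all rows, 24.8% of 19103 were called higher and 21.4% lower in brain, and 16.7% of 18940 were called higher and 15.0% lower in kidney. The median log2 fold change over the 9 members was 1.71 in brain and 1.30 in kidney. Without the composition correction the calls of all rows moved from 53.7% to 36.1% higher in brain and from 52.7% to 21.7% in kidney.

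Kdr, the main signalling receptor of Vegfa (chr5:75932827-75978458, minus strand; GRCm38, GENCODE vM21), had the highest level of all members in both endothelial groups. Its RPKM was 207, 197 and 216 in the 3 brain EC samples against 10.9, 11.5 and 9.38 in the brain translatome. In kidney EC it was 149.6, 149.9 and 139 against 21.2, 22.3 and 21.9 in the kidney translatome. The groups did not overlap, and the log2 fold change was 4.57 (SE 0.10, adjusted p = 7.1e-13 by edgeR) in brain and 3.10 (SE 0.068, adjusted p = 3.53e-10) in kidney.

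Flt1, which binds Vegfa, Vegfb and Pgf and in its soluble form traps them (chr5:147561604-147726011, minus strand), was the lower of the Vegfa receptors in every group. It measured 52.3, 50.7 and 55.2 RPKM in brain EC against 2.77, 3.19 and 2.77 in the brain translatome, and 41.3, 41.6 and 40.4 in kidney EC against 6.22, 5.66 and 6.67 in the kidney translatome. No sample of the whole organs came near an endothelial sample, with log2 fold changes of 4.47 (SE 0.085, adjusted p = 4.83e-13) and 3.09 (SE 0.0725, adjusted p = 3.53e-10). The row rests on 1 RefSeq transcript, and reads of the soluble form on shared exons cannot be told apart from it.

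Flt4, the receptor of Vegfc (chr11:49609263-49652739, plus strand), measured 36.0, 37.0 and 37.3 RPKM in brain EC against 1.75, 1.91 and 1.73 in the brain translatome. In kidney EC it measured 73.9, 73.5 and 66.1 RPKM against 10.2, 10.5 and 11.4. Its log2 fold change of 4.65 in brain (SE 0.075, adjusted p = 3.97e-13) lay at percentile 99.4 of all tested rows, and that of 3.09 in kidney (SE 0.073, adjusted p = 3.53e-10) at percentile 99.1. The fold changes of the 8 endothelial markers ranged from 3.96 to 4.77 (log2, median 4.45) in brain and from 2.48 to 3.18 (median 2.87) in kidney, and those of the receptors lay within these ranges in both organs. On the log2(RPKM + 1) scale limma gave 3.78 for Flt1 and 3.76 for Flt4 in brain.

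Across the 21 samples Flt1 and Kdr had a Pearson correlation of 0.995 on the log2(RPKM + 1) scale, while Vegfa and Kdr had one of -0.20. The samples share their library and their group, so these are descriptions. The 250 bases before the RefSeq transcription start are shown for Flt1 (chr5:147726012-147726261, minus strand) and Kdr (chr5:75978456-75978705, minus strand), whose levels moved together, and for Vegfa (chr17:46032378-46032627, minus strand), whose level did not follow them (GRCm38.p6, written 5′ to 3′ along the gene). Capitals mark GGAA or its reverse complement TTCC, the core letters read by ETS factors, a family with members in endothelial cells.
Flt1: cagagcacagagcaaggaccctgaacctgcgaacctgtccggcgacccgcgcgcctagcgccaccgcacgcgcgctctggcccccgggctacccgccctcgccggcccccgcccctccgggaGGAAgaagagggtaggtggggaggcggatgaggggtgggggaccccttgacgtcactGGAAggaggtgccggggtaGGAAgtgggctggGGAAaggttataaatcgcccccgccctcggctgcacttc
Kdr: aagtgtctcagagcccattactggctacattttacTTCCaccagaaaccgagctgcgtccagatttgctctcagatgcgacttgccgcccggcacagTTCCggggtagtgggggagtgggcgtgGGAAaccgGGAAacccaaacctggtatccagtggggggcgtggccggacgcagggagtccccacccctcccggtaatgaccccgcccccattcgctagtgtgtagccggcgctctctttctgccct
Vegfa: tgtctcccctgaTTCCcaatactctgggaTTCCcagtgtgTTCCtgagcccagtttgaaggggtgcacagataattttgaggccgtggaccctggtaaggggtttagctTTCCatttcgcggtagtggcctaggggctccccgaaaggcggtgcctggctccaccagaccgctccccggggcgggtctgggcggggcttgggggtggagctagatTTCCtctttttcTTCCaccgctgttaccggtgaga
The core occurred 4 times in the Flt1 window, 4 times in that of Kdr and 6 times in that of Vegfa, on both strands together and with overlapping matches counted. It is a common word: 93.4% of 32851 RefSeq promoter windows of the same length hold it, with a median of 3 matches, 33.4% hold at least 4 and 8.7% at least 6. The palindrome TGACGTCA, the cAMP response element, occurred 1 time in Flt1, in none of the other 8 members, and in 1.5% of all windows. The hypoxia response core ACGTG (reverse complement CACGT) occurred in none of the 9 member windows and in 16.6% of all. Sequence further upstream was not searched, so this does not say that a member lacks the core. All 9 members matched the promoter table by symbol, and of the entries of Vegfa and Pgf, which have 2 each, the nearest to the GENCODE start was taken. For Pgf, Flt4 and Nrp1 the start used lay 477, 416 and 469 bases from the GENCODE start. Their windows lie inside the GENCODE gene span and not upstream of it.

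**Figure D2:**
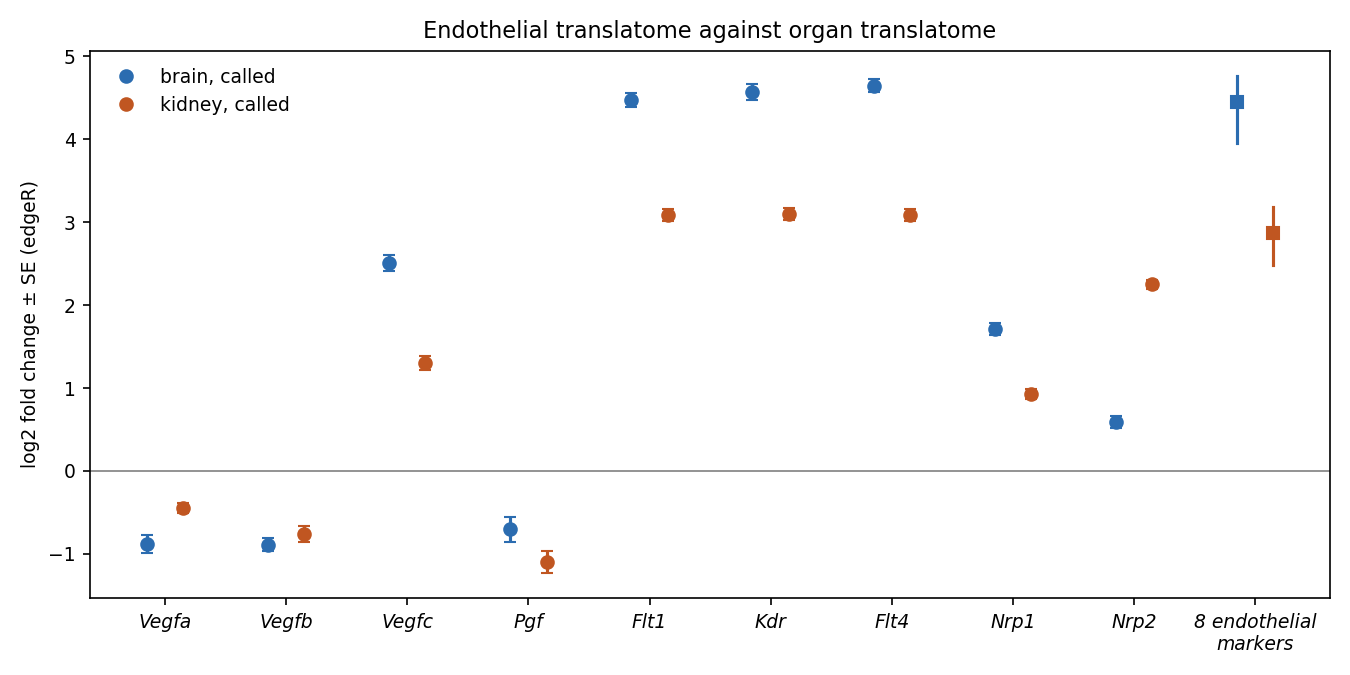
Log2 fold change with its SE (edgeR) of each member in the endothelial translatome against the translatome of its organ, blue for brain and orange for kidney, beside the median (square) and range (line) of the 8 endothelial markers. Every filled point passed the test. Flt1, Kdr and Flt4 lie near 4.5 in brain and near 3.1 in kidney. The fold change of Nrp1 is larger in brain (1.71 against 0.93) and that of Nrp2 in kidney (2.25 against 0.59).

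The neuropilins were also higher in the endothelial samples, by less than the receptor kinases, and the order of their fold changes differed between the organs. Nrp1 had the higher RPKM of the pair in both endothelial groups. Nrp1, a co-receptor of Vegfa and of Sema3a (chr8:128358604-128503363, plus strand, a span that also holds the microRNA gene Mir1903), measured 62.8, 59.4 and 64.7 RPKM in brain EC against 21.6, 24.3 and 23.8 in the brain translatome, and 78.9, 78.9 and 77.3 in kidney EC against 54.4, 53.7 and 50.3 in the kidney translatome. These groups did not overlap, and Nrp1 rose 3.28-fold in brain (log2 1.71, SE 0.074, adjusted p = 2.56e-10) and 1.90-fold in kidney (log2 0.93, SE 0.061, adjusted p = 2.9e-07).

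Nrp2, which serves Vegfc and Sema3f (chr1:62703285-62818695, plus strand), was called higher in the endothelial samples of both organs, from unlike levels in the whole organs. In the kidney translatome it measured 10.3, 10.7 and 10.9 RPKM and in kidney EC 39.3, 39.7 and 40.3, a rise of 4.76-fold (log2 2.25, SE 0.058, adjusted p = 4.42e-10). In brain it was high in the whole organ already, at 36.3, 37.3 and 34.9 RPKM in the translatome against 42.4, 42.6 and 47.6 in brain EC. The groups did not overlap, and the fitted rise was 1.51-fold (log2 0.59, SE 0.072, adjusted p = 7.27e-06). This call was lost without the composition correction (log2 0.30) and with limma on log2(RPKM + 1) (log2 0.28); over all alternatives other than leaving out a library the adjusted p ranged from 1.01e-14 to 0.00396. The Nrp2 span overlaps Gm29083 on the opposite strand and Gm37121, whose reads cannot be told apart in counts without strand.

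The ratio of Nrp1 to Nrp2 RPKM (geometric mean of 3 samples) was 1.41 in brain EC against 0.642 in the brain translatome and 1.97 in kidney EC against 4.96 in the kidney translatome. The EC samples lay above the whole organ in brain and below it in kidney, with no overlap (difference in log2 1.14 and -1.33, two-sided exact permutation test, p = 0.1 for each, the smallest that 3 against 3 samples allow). The ratio of Flt1 to Kdr varied less, at 0.256 in brain EC and 0.282 in kidney EC (difference in log2 -0.14, exact permutation test p = 0.1), 0.275 in the brain translatome and 0.283 in the kidney translatome. The Flt1 to Kdr ratio of kidney EC overlapped that of its organ (difference -0.01, exact permutation test p = 0.9), as did that of brain EC (difference -0.10, exact permutation test p = 0.3). Over the 6 ratio comparisons made, the adjusted p was 0.15 for each with a p of 0.1.

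Of the ligands, Vegfc was higher in the endothelial samples and Vegfa, Vegfb and Pgf were lower. Vegfc (chr8:54077606-54187096, plus strand) measured 16.3, 17.6 and 18.9 RPKM in brain EC against 3.50, 4.05 and 3.84 in the brain translatome, and 22.2, 25.4 and 21.8 in kidney EC against 13.2, 11.6 and 11.3 in the kidney translatome. Each endothelial sample lay above each whole-organ sample, and Vegfc rose 5.69-fold in brain (log2 2.51, SE 0.096, adjusted p = 7.59e-11) and 2.47-fold in kidney (log2 1.30, SE 0.09, adjusted p = 4.07e-07). Vegfc and its receptor Flt4 thus were higher in the same endothelial samples. The lymphatic endothelial markers Prox1, Lyve1 and Pdpn, of which Prox1 is also made by neural progenitors and Pdpn by other cells, summed to 15.0 to 19.1 RPKM in brain EC against 31.0 to 39.1 in the brain translatome and 10.0 to 11.8 in kidney EC against 17.0 to 21.0 in the kidney translatome. Lyve1 alone was called higher in kidney EC, at a mean of 5.80 against 3.63 RPKM (log2 1.03, adjusted p = 0.00033).

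Vegfa, the ligand of Kdr (chr17:46016993-46032369, minus strand), measured 4.21, 3.96 and 5.04 RPKM in brain EC against 8.93, 9.84 and 11.0 in the brain translatome, and 14.4, 15.0 and 14.5 in kidney EC against 24.1, 25.6 and 25.6 in the kidney translatome. The groups did not overlap in either organ. The fit gave a fall by 0.88 (log2, SE 0.11, adjusted p = 9.19e-06) in brain and by 0.45 (log2, SE 0.059, adjusted p = 6.71e-05) in kidney. As a share of the RPKM of the organ translatome, Vegfa stood at 44.4% in brain EC, where the summed neuronal markers stood at 19.4%, the 4 neural progenitor markers at 17.0%, the mural markers at 53.1%, the microglia and macrophage markers at 42.4% and the red blood cell markers at 75.1%. In kidney EC Vegfa stood at 58.4%, where the kidney epithelial markers stood at 18.7%, 3 stromal markers at 22.2%, the microglia and macrophage markers at 19.1%, the red blood cell markers at 34.0% and the mural markers at 85.3%. The podocyte markers, none at 0, stood at 288% and summed to 232 to 276 RPKM against 79.3 to 108. Among them Nphs1, a gene of the podocyte filtration slit, was called higher in kidney EC (log2 1.63, adjusted p = 4.18e-06; edgeR), with a mean of 7.97 RPKM against 3.31. The same 5 markers, of which Podxl is also made by endothelial cells, summed to 89.5 to 94.8 RPKM in brain EC against 23.2 to 24.6 in the brain translatome. The part of these other cells in the Vegfa levels of the EC samples was not tested.

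Vegfb, a ligand of Flt1 (chr19:6982473-6987651, minus strand), measured 20.2, 18.5 and 19.2 RPKM in brain EC against 41.9, 42.0 and 47.3 in the brain translatome, and 27.7, 25.8 and 21.5 in kidney EC against 58.3, 51.5 and 52.7 in the kidney translatome. It fell by 0.89 (log2, SE 0.079, adjusted p = 3.41e-07) in brain and by 0.76 (log2, SE 0.094, adjusted p = 3.95e-05) in kidney. Pgf, placental growth factor, a second ligand of Flt1 (chr12:85166635-85177790, minus strand), was the lowest ligand of the endothelial groups, at 1.81, 1.46 and 1.66 RPKM in brain EC and 2.25, 2.44 and 2.51 in kidney EC. It fell by 0.70 in brain (log2, SE 0.15, adjusted p = 0.000869) and by 1.10 in kidney (log2, SE 0.13, adjusted p = 3.48e-05). The brain call of Pgf was lost in 5 of 6 fits that left out 1 library, all but the fit without brain translatome replicate 2, with an adjusted p of 0.000545 to 0.00799 over the 6. With the transcriptome in place of the translatome as the reference, Vegfb was not called in either organ (log2 -0.24 in brain, -0.09 in kidney), nor was Pgf in brain (log2 -0.17). Vegfa was called lower in both organs. That reference is total RNA, so the gap between translatome and transcriptome enters these values. In the whole organs this gap was -1.71 and -1.16 for Vegfa and 0.63 and 0.60 for Vegfb (log2, brain and kidney).

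The Emx1 lineage, the neurons and progenitors of the dorsal forebrain, held less of the receptor kinases than the whole forebrain, and Vegfa and Vegfb in it overlapped with the whole forebrain. Flt1 measured 0.233, 0.281 and 0.262 RPKM in brain Emx1, Kdr 1.55, 1.75 and 1.45, and Flt4 0.0734, 0.0971 and 0.113, on 56 to 116, 303 to 669 and 18 to 35 reads. Against the brain translatome, whose samples also served the brain EC comparison, they fell by 3.46 (log2, SE 0.11, adjusted p = 5.02e-12), 2.70 (SE 0.0855, adjusted p = 4.6e-12) and 4.22 (SE 0.15, adjusted p = 1.74e-11) by edgeR. With limma on log2(RPKM + 1), a scale that understates the changes of low genes, the log2 differences were -1.63, -2.17 and -1.35. As a share of the brain translatome their RPKM was 8.88%, 14.9% and 5.27%, beside 11.0% for the summed endothelial markers, 13.1% for 5 mural markers and 5.03% for 6 microglia and macrophage markers. The 4 Emx1-lineage markers stood at 205%.

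Nrp1 was the sole member called higher in brain Emx1, at 28.9, 27.7 and 30.0 RPKM (1.29-fold, log2 0.37, SE 0.053, adjusted p = 5.04e-05), a call that limma on log2(RPKM + 1) did not make (log2 0.30; adjusted p 3.74e-08 to 0.00478 over the alternatives other than leaving out a library). Its samples did not overlap with those of the brain translatome. Vegfa (9.21, 8.77 and 9.06 RPKM; log2 -0.07) and Vegfb (45.8, 43.3 and 45.5 RPKM; log2 0.10) overlapped with the translatome and were not called. Vegfc (2.73, 3.40 and 2.60 RPKM; log2 -0.34, adjusted p = 0.0288), Pgf (3.29, 2.84 and 3.31 RPKM; log2 -0.31, adjusted p = 0.052) and Nrp2 (30.7, 28.6 and 30.1 RPKM; log2 -0.21, adjusted p = 0.00165) were not called at 0.001. Their RPKM, without the composition correction, did not overlap with that of the translatome, and how often this holds among all rows was not counted. In all, 1 of 9 members was called higher and 3 lower, where 9.20% of 19006 rows were called higher and 12.8% lower. Without the composition correction the share of higher calls among all calls moved from 41.7% to 29.9%. Against the brain transcriptome, which is total RNA, Vegfa was lower in brain Emx1 by 1.70 (log2), and in the whole brain translatome as well (log2 -1.71).

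Set directly against brain EC, which shares its samples with the comparison above, brain Emx1 was higher in 2 members and lower in 6, where 25.2% of 19143 rows were higher and 25.9% lower (49.3% of all calls higher, 61.1% without the composition correction). Vegfa was 1.78-fold (log2 0.83, SE 0.088, adjusted p = 3.82e-06) and Vegfb 2.02-fold (log2 1.01, SE 0.062, adjusted p = 2.48e-08) higher in brain Emx1. Flt1, Kdr and Flt4 were 240-fold, 152-fold and 463-fold lower, Vegfc 7.10-fold, Nrp1 2.50-fold and Nrp2 1.72-fold. The folds of the receptor kinases depend on the scale, since limma on log2(RPKM + 1) gave log2 differences of -5.42, -6.33 and -5.11 for Flt1, Kdr and Flt4 in place of -7.91, -7.25 and -8.85. Pgf did not pass the test (log2 0.42, adjusted p = 0.0163).

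**Figure D3:**
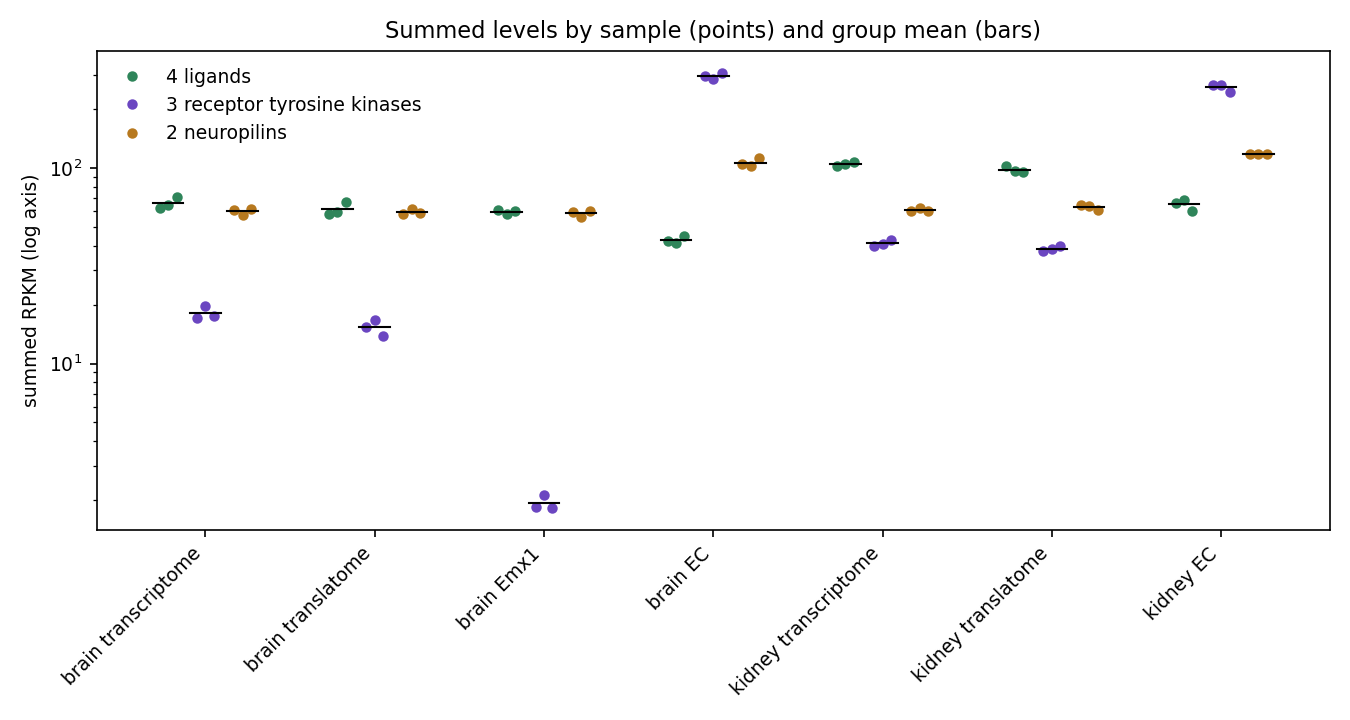
Summed RPKM on a log axis of the 4 ligands (green), the 3 receptor tyrosine kinases (purple) and the 2 neuropilins (ochre) in each sample, with group means as bars. The receptor sum spans 1.94 RPKM (mean of brain Emx1) to 296 RPKM (brain EC), whereas the ligand sums of all groups lie between 41.6 and 107 RPKM.

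Summed by role, the receptor kinases varied most across the groups and the neuropilins least. The receptor sum was 296 ± 11.9 RPKM in brain EC (SD, n = 3), 258 ± 11.4 in kidney EC, 15.3 ± 1.39 in the brain translatome, 38.7 ± 1.19 in the kidney translatome and 1.94 ± 0.167 in brain Emx1. The ligand sum was 43.0 ± 1.69, 65.2 ± 4.31, 61.5 ± 4.49, 98.3 ± 3.68 and 59.9 ± 1.45 RPKM in the same order. The ratio of ligand to receptor RPKM was 0.145 ± 0.001 in brain EC, 0.252 ± 0.007 in kidney EC and 31.1 ± 3.25 in brain Emx1. The neuropilin sum was 58.7 ± 2.12 RPKM in brain Emx1 and 59.4 ± 1.92 in the brain translatome, and 106.5 ± 5.27 in brain EC, and it was highest in kidney EC (118 ± 0.481). The neuropilin sums of the Emx1 lineage and of the whole forebrain differed by less than 1 SD, whereas their receptor sums did not overlap. Kdr led the order of the members in both endothelial groups and was followed by Nrp1, whereas Vegfb led in brain Emx1, the brain translatome and the kidney translatome.

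Brain and kidney endothelial cells were then compared directly. Of the 9 members 2 were higher in brain EC and 2 lower, where 20.1% of 19238 rows were higher and 16.9% lower. Kdr was 1.46-fold (log2 0.54, SE 0.0735, adjusted p = 8.12e-05) and Flt1 1.32-fold (log2 0.40, SE 0.066, adjusted p = 0.000315) higher in brain EC. Flt4 was 1.88-fold lower (log2 -0.91, SE 0.069, adjusted p = 8.59e-07) and Vegfa 3.15-fold lower (log2 -1.65, SE 0.096, adjusted p = 1.05e-07). The Flt1 call was lost in 5 of 6 fits that left out 1 library, all but the fit without brain EC replicate 2 (adjusted p 0.000271 to 0.00209 over the 6). Vegfb, Vegfc, Pgf, Nrp1 and Nrp2 had log2 differences of -0.33, -0.35, -0.50, -0.29 and 0.19 and did not pass the test. Their RPKM, which lacks the composition correction, did not overlap between the 3 samples of each group. How often this holds among all rows was not counted, so it adds nothing to the test. Nrp1 was called by DESeq2 (log2 -0.29, adjusted p 3.12e-05 to 0.0118 over the alternatives other than leaving out a library) and by limma, and Nrp2 in the fit of all 21 samples (log2 0.31, adjusted p 2.61e-05 to 0.0789). The organs also differed in what else their EC samples held. The neuronal markers, with 1 of 5 at 0, summed to 12.1 to 13.9 RPKM in kidney EC, beside 9.68 to 17.4 in the kidney translatome. The podocyte markers were all called lower in brain EC than in kidney EC. The podocyte list does not read podocytes alone. Its sum had a mean of 92.5 RPKM in brain EC against 23.9 in the brain translatome, and Podxl is also made by endothelial cells. The part of other cells in the differences was not tested.

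The fold change of each member over its own organ was also compared between the organs (an interaction over 12 samples). It was larger in brain for 5 members, by 1.23 for Vegfc, 1.41 for Flt1, 1.50 for Kdr, 1.58 for Flt4 and 0.82 for Nrp1 (log2; adjusted p between 9.3e-10 and 1.54e-06), and larger in kidney for Nrp2 (log2 -1.63, SE 0.089, adjusted p = 2.69e-10). Of all 19764 rows 16.5% had a larger fold change in brain and 8.60% in kidney, and the median row had 0.16; with DESeq2 the share of larger-in-brain calls was 55.5% in place of 65.7% and the median 0.05. The 8 endothelial markers all had larger fold changes in brain, by 1.43 to 1.90 (median 1.55), and they and the receptors were lower in the brain than in the kidney translatome (means of 183 and 413 RPKM for the marker sum). Vegfa (log2 -0.40), Vegfb (-0.10) and Pgf (0.42) did not pass the test.

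In total RNA of the whole organs, 7 members were higher in kidney and 1 was lower, where 26.3% of 19841 rows were higher in the kidney transcriptome and 27.2% lower. The largest difference among those higher was that of Flt4, at 10.2, 10.6 and 10.9 RPKM in kidney against 1.87, 2.00 and 1.77 in brain (4.91-fold, log2 2.30, SE 0.07, adjusted p = 1.96e-10). Pgf was 2.57-fold, Vegfc 2.45-fold, Flt1 2.03-fold, Nrp1 1.69-fold, Kdr 1.57-fold and Vegfa 1.48-fold higher in kidney. Nrp2 was 3.89-fold lower (log2 -1.96, SE 0.045, adjusted p = 2.14e-11), at 9.56, 10.2 and 9.40 RPKM in kidney against 34.7, 31.9 and 33.5 in brain. Vegfb, at 34.7, 35.8 and 36.5 RPKM in kidney against 28.4, 28.6 and 29.7 in brain, did not overlap and was not called (log2 0.12, adjusted p = 0.0838; 0.31 without the composition correction, adjusted p 0.000134 to 0.208 over the alternatives other than leaving out a library). The endothelial markers moved with these members, since 7 of 8 were called higher in kidney (median log2 1.49). The share of endothelial cells in each organ was not tested.

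**Figure D4:**
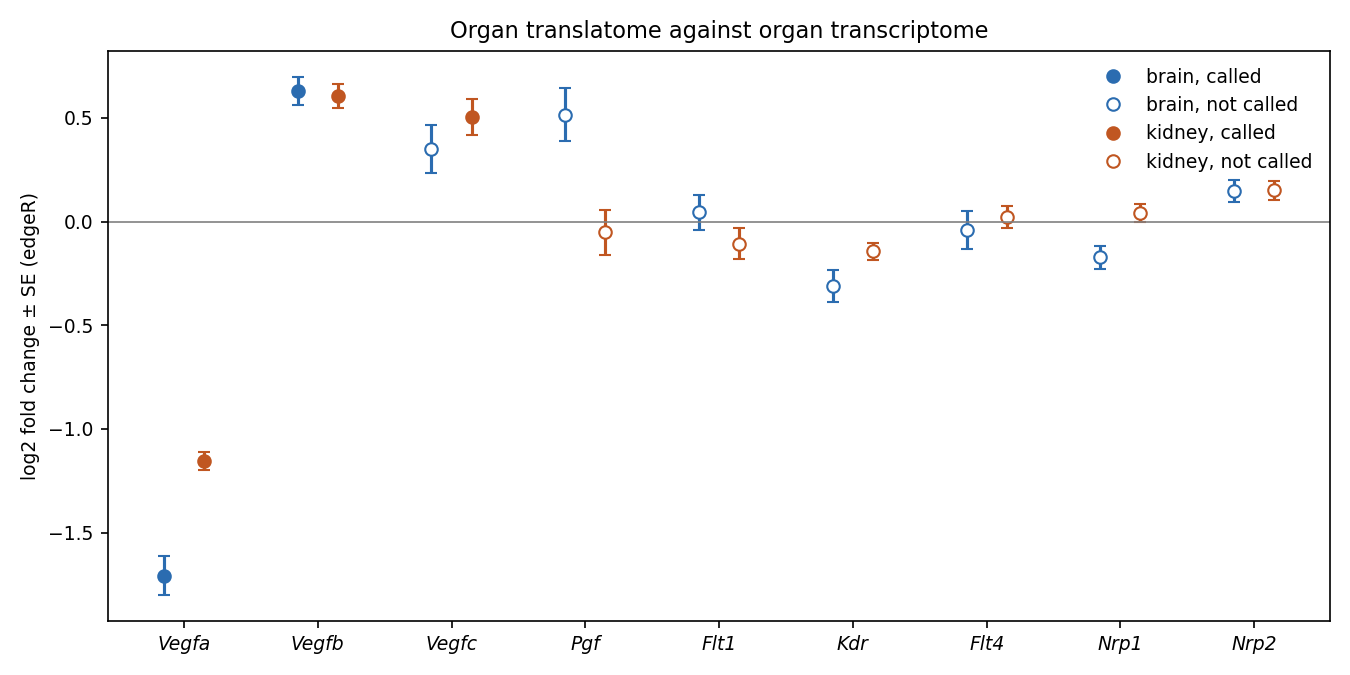
Log2 fold change with its SE (edgeR) of each member in the organ translatome against the organ transcriptome, blue for brain and orange for kidney. Open points mark members that were not called in the fit without pairing of the samples. Vegfa lies at -1.71 in brain and -1.16 in kidney and Vegfb at 0.63 and 0.60, and the other members lie between -0.31 and 0.52.

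The translatome of each organ was set against its transcriptome, and Vegfa and Vegfb went opposite ways in both organs. Cell type markers moved between these samples too: the means of the summed endothelial markers were 113 RPKM in the brain transcriptome and 183 in the translatome, those of the microglia and macrophage markers 18.6 and 36.4, and those of the red blood cell markers 336 and 139. In kidney these sums were 303 and 413, 17.2 and 25.3, and 499 and 134 RPKM. How evenly cell types carried the tagged ribosome was not tested. Vegfa measured 28.3, 29.9 and 35.7 RPKM in the brain transcriptome but 8.93, 9.84 and 11.0 in the translatome, and 51.6, 52.9 and 55.1 RPKM in the kidney transcriptome but 24.1, 25.6 and 25.6 in the translatome. It fell by 1.71 in brain (log2, SE 0.093, adjusted p = 2.21e-09) and by 1.16 in kidney (log2, SE 0.043, adjusted p = 3.53e-08), at percentiles 7.28 and 10.3 of all rows. Vegfb rose from 28.4, 28.6 and 29.7 to 41.9, 42.0 and 47.3 RPKM in brain and from 34.7, 35.8 and 36.5 to 58.3, 51.5 and 52.7 in kidney, by 1.55-fold (log2 0.63, SE 0.069, adjusted p = 2.18e-06) and 1.52-fold (log2 0.60, SE 0.059, adjusted p = 9.81e-06). None of these groups overlapped. The Vegfa row joins 6 RefSeq transcripts and the Vegfb row 2, so their isoforms were not separated. Vegfa made up 47.3% ± 2.72 of the ligand RPKM in the brain transcriptome and 16.1% ± 0.727 in the translatome (SD, n = 3), and 50.8% ± 0.652 and 25.6% ± 1.83 in kidney.

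Vegfc was called higher in the translatome in kidney (log2 0.50, SE 0.088, adjusted p = 0.000655), a call lost in each of the 6 fits without 1 library (adjusted p 0.001 to 0.00348), and was not called in brain (log2 0.35, adjusted p = 0.0186). In sum, without pairing of the samples, 1 member was called higher and 1 lower in brain and 2 higher and 1 lower in kidney. In brain 18.6% of 19446 rows were higher and 18.5% lower, and in kidney 14.9% of 19336 rows were higher and 15.8% lower. The receptor genes showed small differences between translatome and transcriptome, from -0.31 (Kdr in brain) to 0.15 (Nrp2 in kidney) on the log2 scale. The samples of these groups were paired, since the transcriptome and translatome of 1 number came from the same tissue, and with the replicate block 2 members were called higher and 2 lower in each organ: Pgf joined in brain (log2 0.51, adjusted p = 0.000105) and Kdr fell in both (log2 -0.31, adjusted p = 3.46e-05, and -0.14, adjusted p = 0.000715). With the block, 4499 of all 19446 rows were called higher and 4433 lower in brain in place of 3625 and 3596, and 4636 of 19336 higher and 4860 lower in kidney in place of 2880 and 3049.

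The difference of this fold change between the organs was tested as an interaction over 12 samples. Without the replicate block no member was called by edgeR, though 3 had an unadjusted p under 0.05. Of all 20108 rows, 2.35% had a larger fold change in brain and 4.12% in kidney. Vegfa came nearest, with a fold change lower in brain by 0.57 (log2, SE 0.11, adjusted p = 0.00169). It was called with the replicate block (log2 -0.56, adjusted p = 3.01e-08; 1467 and 1978 rows called in all) and by DESeq2 (log2 -0.58, 1 member lower), over alternatives that gave an adjusted p of 3.01e-08 to 0.00395.

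**Figure D5:**
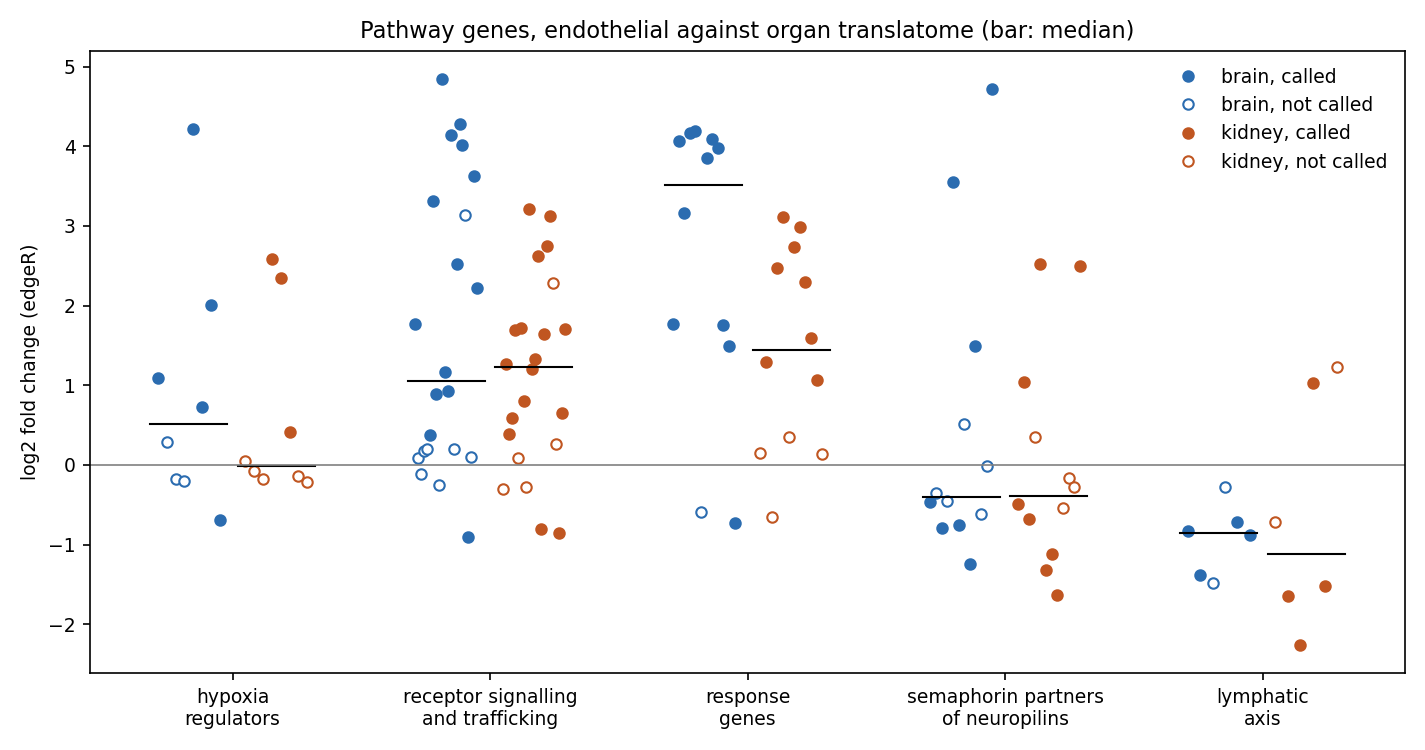
Log2 fold change (edgeR) of each gene of 5 pathway lists in the endothelial against the organ translatome, blue for brain and orange for kidney, with open points for genes not called and a bar at the list median. The response genes have the highest median in brain (3.51), and the semaphorin partners and the lymphatic axis have medians below 0 in both organs.

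Genes that carry, answer or control VEGF signals were followed in 5 lists. Their counts stand beside 24.8% of all rows higher and 21.4% lower in brain EC than in the brain translatome, and 16.7% higher and 15.0% lower in kidney EC than in the kidney translatome. Of 22 genes of receptor signalling and trafficking, 13 were higher and 1 lower in brain EC than in the brain translatome, and 15 higher and 2 lower in kidney EC than in its translatome, with list medians of 1.05 and 1.23 (log2) beside -0.01 and -0.04 over all rows. Nos3, the endothelial nitric oxide synthase, rose by 4.84 (log2, SE 0.074) in brain and 3.22 (SE 0.069) in kidney. Rasgrp3, a Ras exchange factor, rose by 4.28 and 2.75, Ptprb, the vascular endothelial protein tyrosine phosphatase, by 4.14 in brain, and Rasip1, a Ras-interacting protein of vessels, by 3.13 in kidney. Shb, an adaptor of Kdr, fell by 0.90 in brain, and in kidney Src, a cytoplasmic kinase, fell by 0.85 and Ptprj, a receptor phosphatase, by 0.81.

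Of 12 genes known to answer VEGF, 10 were higher and 1 lower in brain EC (median 3.51), and 8 were higher in kidney EC (median 1.44). Dll4, a Notch ligand of sprouting cells, rose from 3.46 to 51.9 RPKM in brain (log2 4.20) and from 6.21 to 41.9 RPKM in kidney (log2 3.11). Apln, the ligand apelin, rose by 4.17 in brain, Hlx, a homeobox factor, by 4.09 in brain and 2.99 in kidney, and Esm1, a secreted proteoglycan of sprouting endothelium, by 2.73 in kidney. Each of these rises lay within the range of the endothelial markers in its organ, and a response to VEGF was not tested. Rcan1, an inhibitor of calcineurin, fell by 0.73 in brain. Between the endothelial groups the list split, with 5 genes higher in brain EC (Apln 2.33, Angpt2 2.16 and Adm 1.91 the largest, log2) and 5 lower (Adamts1 -1.56, Esm1 -1.56 and Hlx -1.22). Of all rows, 20.1% were higher in brain EC than in kidney EC and 16.9% lower.

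Among 8 regulators of the hypoxia response, 4 were higher and 1 lower in brain EC (median 0.51), and 3 were higher in kidney EC (median -0.02), beside 24.8% of all rows higher and 21.4% lower in brain and 16.7% higher in kidney. Epas1, the hypoxia factor of endothelium, measured 162 RPKM in brain EC and 60.0 in kidney EC against 10.6 and 15.1 in the organ translatomes (log2 4.22 and 2.35). Hif3a and its partner Arnt rose by 2.00 and 1.09 in brain EC and Vhl, which marks hypoxia factors for destruction, fell by 0.69. Egln3, a prolyl hydroxylase that marks them for Vhl, measured 123 RPKM in kidney EC against 3.33 in brain EC (brain EC lower, log2 -5.16) and rose by 2.59 over the kidney translatome. Hif1a rose by 0.41 in the composition-corrected fit, at means of 46.7 RPKM in kidney EC against 44.9 in the kidney translatome. Between the endothelial groups, Epas1 (1.48), Egln2 (0.53) and Egln1 (0.42) were higher in brain EC.

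The semaphorin partners of the neuropilins, 12 class 3 semaphorins and plexins, moved both ways, 3 higher and 4 lower in brain EC (median -0.40) and 3 higher and 5 lower in kidney EC (median -0.39). The share higher in brain was near the 24.8% of all rows, and in kidney 16.7% of all rows were higher and 15.0% lower. Sema3g, a class 3 semaphorin of vessels, rose by 4.72 in brain and 2.50 in kidney, and Plxnd1, the endothelial plexin, by 3.55 and 2.52. Plxna2 rose by 1.04 in kidney. Sema3c and Sema3a fell by 1.24 and 0.75 in brain and by 1.63 and 1.31 in kidney, with Plxna3 lower in brain (log2 -0.79) and Sema3b in kidney (log2 -1.12). Brain EC was higher than kidney EC in Plxna4 (2.73), Plxna3 (1.54) and Plxna2 (1.52) and lower in Sema3d (-3.09), Sema3c (-1.69) and Sema3f (-1.23), with 4 genes of the list called each way. In that comparison 20.1% of all rows were higher and 16.9% lower.

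Of 6 listed genes of the lymphatic axis found in the files, 4 were lower in brain EC (median -0.86), and 1 was higher and 3 were lower in kidney EC (median -1.12). Prox1, the factor that specifies lymphatic endothelium and is also made in neural progenitors, fell by 0.88 in brain, Adamts3, a protease of Vegfc processing, by 0.83, and Pdpn, podoplanin, by 0.72. In kidney EC Lyve1, a hyaluronan receptor of lymphatic vessels, rose by 1.03, while Figf, the older symbol of the Flt4 ligand Vegfd, fell by 2.26, Ccbe1, which helps to process Vegfc, by 1.64 and Pdpn by 1.52. Between the endothelial groups Pdpn was higher in brain EC (1.52) and Lyve1 lower (-0.86).

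In brain Emx1 against the brain translatome, where 9.20% of all rows were higher and 12.8% lower, the lists held calls in both directions. Of the response genes 6 were lower (median -0.81 beside 0.00 over all rows), and Apln fell by 2.09 (log2). Of the signalling genes 5 were higher, led by Efnb2, an ephrin that steers receptor uptake (0.53), Shb (0.33) and Fyn, a cytoplasmic kinase (0.28), and 7 lower, led above 5 RPKM by Dab2, an endocytic adaptor (-2.78), and Rasip1 (-0.83). Of the semaphorin partners 3 were higher (Plxna4 0.61, Plxna2 0.47 and Sema3c 0.45) and 3 lower (Plxna1 -0.38). Of the hypoxia regulators Hif1a was higher (0.24) and Epas1 lower (-2.91). Of the lymphatic axis 3 were higher, among them Adamts3 (0.98) and Pdpn (0.46), and 2 lower, among them Prox1 (-0.73).

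Against brain EC the response genes were lower in brain Emx1 in 10 of 12 and higher in 1 (median -4.41), led by Apln (-6.23), Esm1 (-6.09) and Hlx (-5.98), with Rcan1 higher (0.61). Of all rows, 25.2% were higher in brain Emx1 than in brain EC and 25.9% lower. Of the signalling genes 13 were lower, led by Nos3 (-8.08), Ptprb (-7.17) and Rasgrp3 (-6.97), and 3 higher, Shb (1.26), Nck2 (0.55), an adaptor, and Efnb2 (0.47). Epas1 (-7.10), Hif3a (-1.89) and Arnt (-0.96) were lower and Vhl higher (0.81). Sema3g (-6.71) and Plxnd1 (-3.56) were lower, and Sema3c (1.72), Plxna4 (1.09) and Plxna3 (0.89) higher. Adamts3 (1.83) and Pdpn (1.20) were higher too.

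Between brain EC and kidney EC, 6 of the signalling genes were higher in brain EC and 7 lower (median 0.00 beside 0.01 over all rows), where 20.1% of all rows were higher and 16.9% lower. Src (1.94), Shb (1.09) and Dab2 (0.88) were higher, and Yes1, a kinase of the Src family (-1.03), Myo1c, a myosin that moves Kdr to the surface (-0.86), and Rasgrp3 (-0.80) lower.

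The rows most like each member were sought over the 21 samples among 11841 rows with a mean of at least 5 RPKM in a group, by the Pearson correlation of log2(RPKM + 1). The samples of a group and organ share their makeup, so this is a description. Flt1 was most like Pcdh12, Thsd1 and Eogt (0.996 to 0.997), Kdr like Cd93, Nos3 and Flt1 (0.995 to 0.997), and Flt4 like Ehd2, Dysf and She (0.996 to 0.998). Vegfc was most like Vasp, Tinagl1 and Rell1 (each 0.993), and its correlation with its receptor Flt4 was 0.972. Nrp1 was most like Ppp2r5a, Rap1gds1 and Zfpm1 (0.981 to 0.986) and Nrp2 like Kif26a, Sh3bp5 and Mamld1 (0.975 to 0.976). Vegfa was most like Cand1, Pwwp2a and Srsf6 (0.982 to 0.983), each with a lower mean in the translatome than in the transcriptome of both organs. Srsf6, a splicing factor, had means of 77.3 RPKM in the brain translatome and 137 in the transcriptome. Vegfb was most like Spg21, Cbx3 and Ubap1 (0.973 to 0.980), and Pgf like Psmd5, Rasl12 and Spint2 (0.970 to 0.978). Between members, Pgf and Nrp2 had the lowest correlation, -0.92.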

How the data were processed

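RNA of mouse forebrain or kidney at embryonic day 14.5 was sequenced in 21 samples of 7 groups (3 each), from unstranded TruSeq libraries of dissected organs. The authors mapped reads to GRCm38 (mm10) with RUM and summed them over RefSeq genes with the rpkmforgenes script. The deposited files give raw read counts and RPKM values (reads per kilobase, scaled to the mapped reads) per row. Groups and replicate numbers came from the sample titles. Depth was 21760652 to 79231692 counts a sample (median 43190754), lowest in the kidney translatome. No RPKM was changed, and levels, sums and ratios rest on it.

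Each comparison was fitted on its own samples with the quasi-likelihood test of edgeR 4.0.16 (R 4.3.3, TMM, rows with at least 1 count, Benjamini-Hochberg adjustment over all rows, call at an adjusted p under 0.001, the threshold of the study). On simulated counts with 200 changed genes, the script was tested and found all 200. The planted changes were larger than many member changes above and lay in well-counted rows. The simulated spread was fixed and no composition shift was planted, so the finding of small changes was not tested. Alternatives were DESeq2 1.42.0, limma 3.58.1 on log2(RPKM + 1) and log2(RPKM + 0.1), RLE, total counts, at least 10 counts in 3 samples, a threshold of 0.05, the replicate block, the transcriptome as the reference, a fit of all 21 samples and leaving out each library. Per the study, transcriptome and translatome of 1 number came from 1 tissue sample. The deviations of same-numbered samples from their group means had correlations of 0.29 to 0.75 in brain and 0.67 to 0.75 in kidney over 7175 genes. Between brain EC and kidney EC they were 0.18 to 0.51.

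Each EC group and brain Emx1 had a sequencing lane of its own, so lane and group cannot be told apart. Cell counts per sample are not given, and p-values measure the spread between the samples of a group. The named pathway genes were, per list and direction, up to 3 called genes with the largest fold change and at least 5 RPKM in a group. The 9 members, the lists and the tests were chosen with earlier results of these data known.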

Additional observations from a re-analysis of the deposited data

Results flagged for a closer look

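The rise over the organ translatome differed between the organs by the interaction test of edgeR (adjusted p under 0.001) for 6 members, where 16.5% of 19764 rows were called larger in brain and 8.60% larger in kidney. It was larger in brain EC than in kidney EC for Vegfc (1.23 on the log2 scale), Flt1 (1.41), Kdr (1.50), Flt4 (1.58) and Nrp1 (0.82), and larger in kidney EC for Nrp2 (-1.63). The 8 endothelial markers differed in the same direction as the first 5, by 1.43 to 1.90, and the median of all rows was 0.16. Vegfa (-0.40) and Vegfb (-0.10) also lay below 0 and did not pass the test. The levels in the EC samples did not all follow the order of the rises. Mean RPKM was lower in brain EC than in kidney EC for Vegfc (17.6 against 23.2), Flt4 (36.8 against 71.2) and Nrp1 (62.3 against 78.4). It was higher in brain EC for Flt1, Kdr and Nrp2. In the organ translatomes the first 5 were lower in brain than in kidney, and Nrp2 was higher (36.2 against 10.6 RPKM).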

How the results depend on the processing

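Of the member values, 711 under other settings and 616 without 1 library kept their direction and their side of the threshold. Under other settings 40 more came past the threshold, 8 no longer passed it and 6 turned their direction, and without 1 library these were 2, 16 and 14. The other settings include the threshold of 0.05, which reuses the main fit and can only keep or add calls. They also include the transcriptome as the reference, which is a different comparison. At an adjusted p under 0.05 the rows called were 5223 higher and 5286 lower in kidney EC, 4278 and 4302 in brain Emx1 against the brain translatome (5 members lower), 5864 and 5605 in brain EC against kidney EC (6 members lower), 5335 and 3187 for the organ difference in endothelial rise (2 members lower), 5461 lower in the brain translatome against the transcriptome (4 members higher, 3 lower), 4704 and 5050 in that of kidney (2 members lower), and 2107 and 2540 for the organ difference of the translatome (1 member higher, 2 lower). With total counts, kidney EC had 1564 rows higher and 5655 lower. DESeq2 gave 2735 rows with a larger endothelial rise in kidney, 1128 and 1581 rows (1 member lower) for the organ difference of the translatome, and 2 members lower in the brain translatome against the transcriptome, as did the fit of 21 samples. The filter of 10 counts left 1164 rows higher in brain Emx1 against the brain translatome, where fewer rows were tested.

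With the replicate block, 1116 rows were higher in brain Emx1 against the brain translatome, 4636 higher and 4860 lower in the kidney translatome against its transcriptome (2 members lower), 2 members higher and 2 lower in that of brain, and 1467 and 1978 rows (1 member lower) for the organ difference. The pairing changed no member call between brain EC and kidney EC. Against the transcriptome, which is total RNA, 1 member was lower in brain EC and 2 higher in brain Emx1. These counts, and that of 2 members lower in the brain translatome by DESeq2 and the fit of 21 samples, stand without the all-row counts of their settings. They are descriptions of the settings and not results about the members. In brain Emx1, Vegfc (0.083), Pgf (0.28) and Nrp2 (0.009) turned above 0 and none of these passed the test. The organ difference of Vegfb was -0.0003 with DESeq2, -0.0017 with total counts and -0.0047 in the fit of 21 samples. The cause was not tested.

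Leaving out 1 library gave 1110 to 1444 rows higher in brain Emx1 against the brain translatome, 1 to 2 members higher in brain EC against kidney EC, 1 to 1 member higher in the kidney translatome against its transcriptome, and 255 to 437 rows higher and 0 to 1 members lower for the organ difference of the translatome. Values near 0 crossed it, with ranges of -0.14 to 0.013 for Vegfa in brain Emx1, -0.022 to 0.11 for Flt1 in the brain translatome, -0.11 to 0.040 for Pgf and -0.027 to 0.054 for Flt4 in the kidney translatome, and -0.055 to 0.074 for Vegfb and -0.059 to 0.0022 for Nrp2 in the organ difference. Depth limits Flt4 in brain Emx1 most, with 18 to 35 reads.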
